A study of Rattus norvegicus with 6 samples.

Results

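The circadian clock genes described here are the 10 rat genes Bmal1, Clock, Per1, Per2, Per3, Cry1, Cry2, Nr1d1, Nr1d2 and Dbp, taken as a fixed list by gene symbol from 15284 genes named on the array. Their 22 probes, of 61573 in all, were found through the RefSeq accession that the scanner files give for each probe. All 10 genes had at least 1 probe well above background on all 6 arrays, and 19 of the 22 probes could be tested. The brominated compound 2,2-bis(bromomethyl)-1,3-propanediol, known as a flame retardant and called BBMP here, had been given at 1000 mg/kg/day to 3 male Sprague-Dawley (Crl:CD(SD)) rats, and corn oil to 3 others, and each liver was read on 1 Cy3-labelled array. The rats were 5 weeks old at purchase and were kept on 12 h of light and 12 h of dark with free access to tap water. The labels give the time both as 28 days and as 9 weeks of dosing. The hour of the day at which livers were taken is not given in the sources used here, nor is the hour of the last dose. Each group was on a slide of its own, scanned apart from the other. No difference below can therefore be told apart from one between slides or scans.

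In the liver clock, CLOCK and BMAL1 pair up and switch on genes that carry an E-box, among them the Per and Cry genes, Nr1d1, Nr1d2 and Dbp. PER and CRY proteins return to the nucleus and block that pair, while the nuclear receptors encoded by Nr1d1 and Nr1d2 (REV-ERB alpha and beta) repress Bmal1 through RORE sites. In nocturnal rodents the transcripts of Nr1d1 and Dbp are high in liver during the light phase and those of the Per genes towards dusk, while Bmal1 and Cry1 are high from late night to dawn, so the level measured in a liver depends on the hour at which it was taken.

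RefSeq promoter windows (GRCr8, from 250 bases before to 50 bases after the start) were held for 9 of the 10 genes, 11 windows in all, and none was held for Cry1. The windows of Bmal1, Per2 and Nr1d1 are shown because they hold letters that match clock motifs, and because the Bmal1 and Nr1d1 transcripts are the arms of the clock that are compared per animal below. Capitals mark matches, on either strand, to the E-box CACGTG, the related CACGTT, the core AGGTCA of the RORE, and the D-box TTATGTAA. The D-box variant TTACGTAA and the cAMP response element TGACGTCA were also searched and matched 0 of the 11 windows. None of the matches printed overlaps another.

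Bmal1, chr1:176766078-176766377, plus strand: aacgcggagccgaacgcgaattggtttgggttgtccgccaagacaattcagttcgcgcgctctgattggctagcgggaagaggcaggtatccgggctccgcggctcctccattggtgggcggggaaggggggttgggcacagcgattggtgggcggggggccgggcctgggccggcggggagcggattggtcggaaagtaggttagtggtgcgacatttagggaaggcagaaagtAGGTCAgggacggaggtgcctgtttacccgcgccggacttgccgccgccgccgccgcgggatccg

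Per2, chr9:99496944-99497243, minus strand: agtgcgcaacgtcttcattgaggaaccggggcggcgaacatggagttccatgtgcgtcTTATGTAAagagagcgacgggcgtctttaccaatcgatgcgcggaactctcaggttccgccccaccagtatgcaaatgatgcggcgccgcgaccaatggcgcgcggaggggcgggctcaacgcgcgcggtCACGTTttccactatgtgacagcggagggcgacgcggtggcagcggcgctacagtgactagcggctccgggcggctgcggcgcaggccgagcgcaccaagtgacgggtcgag

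Nr1d1, chr10:84231763-84232062, minus strand: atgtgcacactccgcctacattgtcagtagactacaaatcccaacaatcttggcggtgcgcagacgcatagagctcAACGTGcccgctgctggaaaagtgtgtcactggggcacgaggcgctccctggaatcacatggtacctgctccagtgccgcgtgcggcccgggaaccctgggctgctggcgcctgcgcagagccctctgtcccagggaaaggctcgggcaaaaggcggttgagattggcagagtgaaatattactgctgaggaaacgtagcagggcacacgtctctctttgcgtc

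Nr1d1, chr10:84229405-84229704, minus strand: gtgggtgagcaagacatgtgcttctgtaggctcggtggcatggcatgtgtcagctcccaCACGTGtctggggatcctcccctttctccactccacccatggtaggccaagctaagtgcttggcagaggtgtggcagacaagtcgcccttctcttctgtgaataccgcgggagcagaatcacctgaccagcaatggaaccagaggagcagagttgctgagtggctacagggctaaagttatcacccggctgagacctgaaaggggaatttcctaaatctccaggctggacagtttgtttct

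The Bmal1 window held AGGTCA 15 bases before the start, and 16.2% of 33469 promoter windows of the same length hold that core. In Per2, CACGTT lay 62 bases and TTATGTAA 192 bases before the start, and these letters occur in 4.83% and 0.893% of all windows. The outer Nr1d1 window held CACGTT on the opposite strand, and the inner one held CACGTG 191 bases before its start, which 6.42% of windows hold. Nr1d2 also matched AGGTCA and Cry2 also matched CACGTT, whereas Clock, Per1, Per3 and Dbp matched no motif in these windows. A match here is a description of the letters and does not show binding.

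Levels are log2 ratios of the background-subtracted signal to that array's 75th percentile, so 0 is the 75th percentile of the array. Differences are BBMP minus corn oil on the same log2 scale, from limma across 28112 features, with the Benjamini-Hochberg adjusted p over all of them. Levels of different genes come from different probes and are not compared with each other.

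None of the 10 clock genes passed the test between BBMP and corn oil livers. With limma 0 of 10 passed an adjusted p of 0.05, where 0.00711% of all features passed, and the smallest adjusted p among them was 0.486. At an unadjusted p under 0.05 there were also 0 of 10, where the share among all features was 10.8% (4.70% higher and 6.09% lower in BBMP livers). The groups overlapped for all 10 genes, while 17.8% of all features had groups that did not overlap. Of the 10 differences, 6 were above and 4 were below 0, with a median of 0.09 against -0.01 over all features, of which 52.5% were below 0. For 7 of the 10 genes the 95% interval of the difference lay within 2-fold either way, as it did for 87.3% of all features. For Per1, Per2 and Cry1 the interval reached beyond 2-fold, so 3 animals a group did not bound their change to that size.

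The activators varied little between the 6 livers. Bmal1, the partner of CLOCK and the only core clock gene whose loss alone stops the rhythm in mice, had levels of 1.64, 2.09 and 2.03 in BBMP livers 1, 2 and 3, against 2.06, 2.15 and 2.08 in corn oil livers 1, 2 and 3. BBMP 1 stood below the other 5 livers, which lay close together. The difference was -0.18 ± 0.14 (SE), with a 95% interval from -0.51 to 0.16 and a limma adjusted p of 0.671, and it was -0.04 without BBMP 1. Clock, which encodes the DNA-binding partner of BMAL1, had levels of -1.14, -0.83 and -1.17 in BBMP livers against -0.75, -0.82 and -1.13 in corn oil livers. Both groups held livers near the top and near the bottom of this range, and the difference was -0.15 ± 0.15 (SE; limma adjusted p = 0.740).

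**Figure D1:**
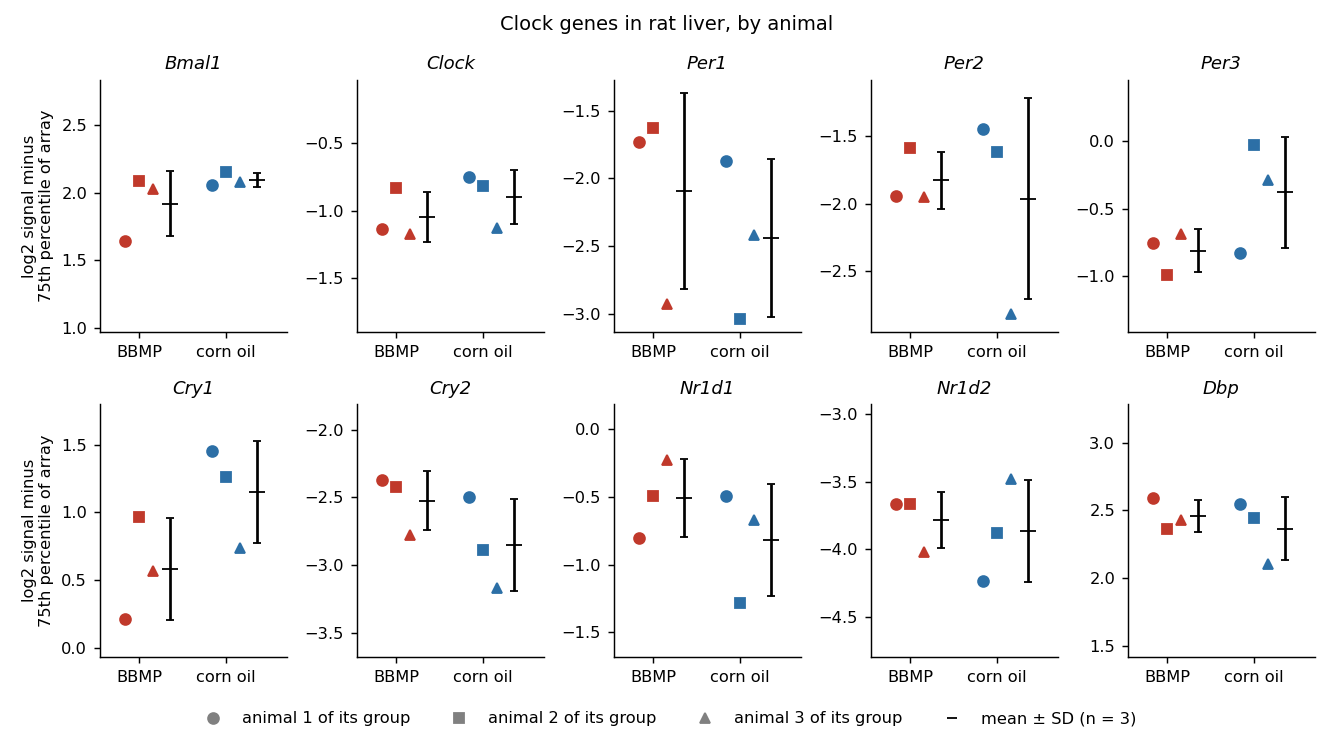
Level of each clock gene in every liver, on a log2 scale relative to the array's 75th percentile, with BBMP in red and corn oil in blue, a marker for each animal, and the mean ± SD (n = 3) as a bar. All panels span the same number of log2 units, and the groups overlap in all 10 of them, with Bmal1, Clock and Dbp in the narrowest bands and Per1 and Per2 in the widest.

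The proteins of the Period genes are the rhythmic part of the repressor complex. On the probes used, Per1 and Per2 varied more from animal to animal than the other 8 clock genes. Per1, which also responds directly to glucocorticoid hormone, had levels of -1.73, -1.62 and -2.93 in BBMP livers against -1.87, -3.04 and -2.42 in corn oil livers. Each group thus held a liver with low Per1, BBMP 3 and corn oil 2. The highest liver was 2.66-fold above the lowest, and the group difference of 0.35 ± 0.43 (SE) had an interval from -0.69 to 1.39 (limma adjusted p = 0.789). It was 0.05 without corn oil 2 and 0.76 without BBMP 3.

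Per2 had levels of -1.94, -1.59 and -1.95 in BBMP livers against -1.45, -1.62 and -2.82 in corn oil livers. Corn oil 3 was the low liver here, and it alone set the sign of the group difference: the difference was 0.13 ± 0.36 (SE; limma adjusted p = 0.913) with all animals and -0.29 without corn oil 3. Per3, which is dispensable for the core loop in mice but cycles with it, had levels of -0.76, -0.99 and -0.69 in BBMP livers against -0.83, -0.03 and -0.29 in corn oil livers. Corn oil 1 lay within the BBMP range and the other corn oil livers above it. The difference was -0.43 ± 0.22 (SE; limma adjusted p = 0.519).

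Among the cryptochromes, which block CLOCK and BMAL1, Cry1 had the largest difference and the smallest p of the 10 genes. Its levels were 0.21, 0.97 and 0.57 in BBMP livers against 1.46, 1.26 and 0.73 in corn oil livers. BBMP 1 was again the lowest liver, as it was for Bmal1, and BBMP 2 lay above corn oil 3. The difference was -0.57 ± 0.26 (SE), a ratio of 0.674, with an interval from -1.19 to 0.05 and a limma adjusted p of 0.486. Cry2 had levels of -2.37, -2.43 and -2.78 in BBMP livers against -2.50, -2.89 and -3.17 in corn oil livers. Corn oil 1 lay within the BBMP range, and the difference was 0.33 ± 0.20 (SE; limma adjusted p = 0.582).

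The REV-ERB genes gave no common picture. Nr1d1, the repressor of Bmal1 whose E-box windows are printed above, had levels of -0.80, -0.49 and -0.22 in BBMP livers against -0.49, -1.28 and -0.67 in corn oil livers. The lowest liver was corn oil 2, which had the highest Bmal1 of the 6. BBMP 1, however, was low for Nr1d1 and for Bmal1 alike, and the group difference was 0.31 ± 0.25 (SE; limma adjusted p = 0.671), or 0.08 without corn oil 2. Nr1d2 had levels of -3.67, -3.66 and -4.02 in BBMP livers against -4.23, -3.88 and -3.48 in corn oil livers. Corn oil livers were both the highest and the lowest, and the difference of 0.08 ± 0.21 (SE; limma adjusted p = 0.909) became -0.10 without corn oil 1. This probe was dim, since the limit for a signal well above background was -5.40 to -4.89 depending on the array.

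Dbp, the D-box activator that CLOCK and BMAL1 drive directly and that has among the strongest daily rhythms known in rodent liver, was close to level. It had 2.59, 2.36 and 2.43 in BBMP livers against 2.55, 2.45 and 2.10 in corn oil livers. Corn oil 3 was the lowest, and the highest liver was 1.40-fold above it. The difference was 0.10 ± 0.15 (SE), with an interval from -0.25 to 0.45 (limma adjusted p = 0.831), and it was -0.0353 without corn oil 3.

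The spread between animals of the same group differed across the genes. Over all features the median within-group SD was 0.18 on the log2 scale, and over the 10 clock genes it was 0.31, with 9 of the 10 above the median of all features. Bmal1, at 0.17, and Dbp, at 0.18, were at percentiles 47.7 and 50.9 of all features. Clock was at percentile 53.8. Per1 and Per2, at 0.66 and 0.55, were at percentiles 96.7 and 94.3, and Cry1 and Nr1d1 at 85.1 and 83.3. On the probes used, the genes described above as rhythmic in liver did not share a spread. On those probes Bmal1 and Dbp varied like a typical feature, and Per1 and Per2 varied more than most. The dimmer Per1 probe had an SD of only 0.26 in BBMP livers and 0.16 in corn oil livers. For Dbp, the brightest probe had SDs of 0.12 in BBMP livers and 0.23 in corn oil livers. Its other probes had 0.30, 0.29 and 0.26 in BBMP livers and 0.23, 0.29 and 0.26 in corn oil livers. These percentiles were not matched for signal level.

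A contrast was taken for each liver as the mean of Nr1d1, Nr1d2, Dbp, Per1, Per2 and Per3 minus the mean of Bmal1, Clock and Cry1, after each gene was centred on its mean over the 6 arrays. It sets genes that are high by day or at dusk against genes that are high from late night to dawn. The sides were set by known phase in rodent liver, and Cry2 was on neither side. It was 0.48, 0.03 and 0.07 in BBMP 1, 2 and 3, against -0.20, -0.33 and -0.05 in corn oil 1, 2 and 3. BBMP livers averaged 0.19 ± 0.25 and corn oil livers -0.19 ± 0.14 (SD, n = 3 each). The groups did not overlap, which was also so for 17.8% of all single features. BBMP 2, BBMP 3 and corn oil 3 lay close together near 0. BBMP 1 stood apart through the dawn genes, whose mean was -0.40 there, while the mean of the day and dusk genes was 0.09. Those 6 genes gave 0.09, 0.14 and -0.09 in BBMP livers and 0.08, -0.09 and -0.12 in corn oil livers, which overlap. Without Cry1, Clock and Per1 the group difference was 0.21 in place of 0.39, and without BBMP 1 it was 0.24. No test was made of this contrast, and it does not give an hour without a reference time course, which was not used here.

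**Figure D2:**
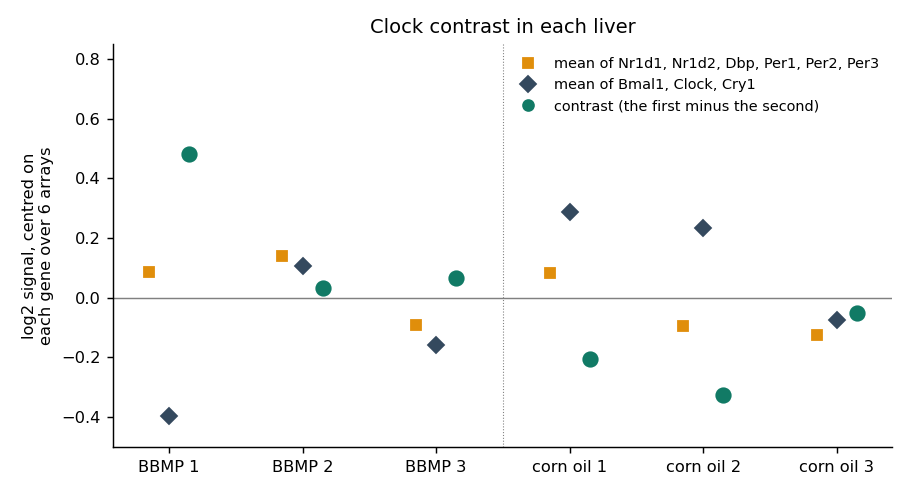
Centred log2 levels in each liver for the genes high by day or at dusk (squares), the genes high at dawn (diamonds) and the contrast between them (circles), with BBMP livers at the left and corn oil livers at the right. The contrast is 0.48 in BBMP 1 and between -0.33 and 0.07 in the other 5 livers.

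Different probes of the same gene did not give the same difference, though every interval included 0 and no test was made between probes. Of the 6 genes with more than 1 tested probe, all 6 had probes whose group differences were of opposite sign, and with every probe tested as its own row 0 of the 19 clock probes passed limma's adjusted p of 0.05. A further probe of Bmal1 gave 0.07 ± 0.15 (SE) in place of -0.18. Its levels, however, were also lowest in BBMP 1: -0.72, -0.31 and -0.24 in BBMP livers against -0.54, -0.55 and -0.38 in corn oil livers. The other probes of Clock gave 0.19 and -0.25, and the other probe of Cry2 gave -0.25 in place of 0.33. That Cry2 probe was dim, with levels from -4.71 to -3.53.

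A dimmer probe of Per1 gave -0.30 in place of 0.35, with levels of -4.71, -4.20 and -4.33 in BBMP livers against -4.18, -4.23 and -3.93 in corn oil livers. It did not show the low livers seen with the brighter probe, and it lay near the limit of measurement. For Per3, a probe that was well above background in 3 BBMP livers and 2 corn oil livers gave 0.32 in place of -0.43. The other 3 Per3 probes were not well above background on any array and give no difference. Probe A_44_P196198 had levels of -5.51, -5.58 and -6.30 in BBMP livers against -6.99, -6.84 and -7.41 in corn oil livers, all below the limit.

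The 4 probes of Dbp were the most alike. Their differences were 0.10, 0.05, 0.02 and -0.11. On all 4 of them BBMP 1 and corn oil 1 were the highest livers, for instance with levels of 1.72, 1.37 and 1.13 in BBMP livers against 1.62, 1.26 and 1.20 in corn oil livers on the next brightest probe.

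**Figure D3:**
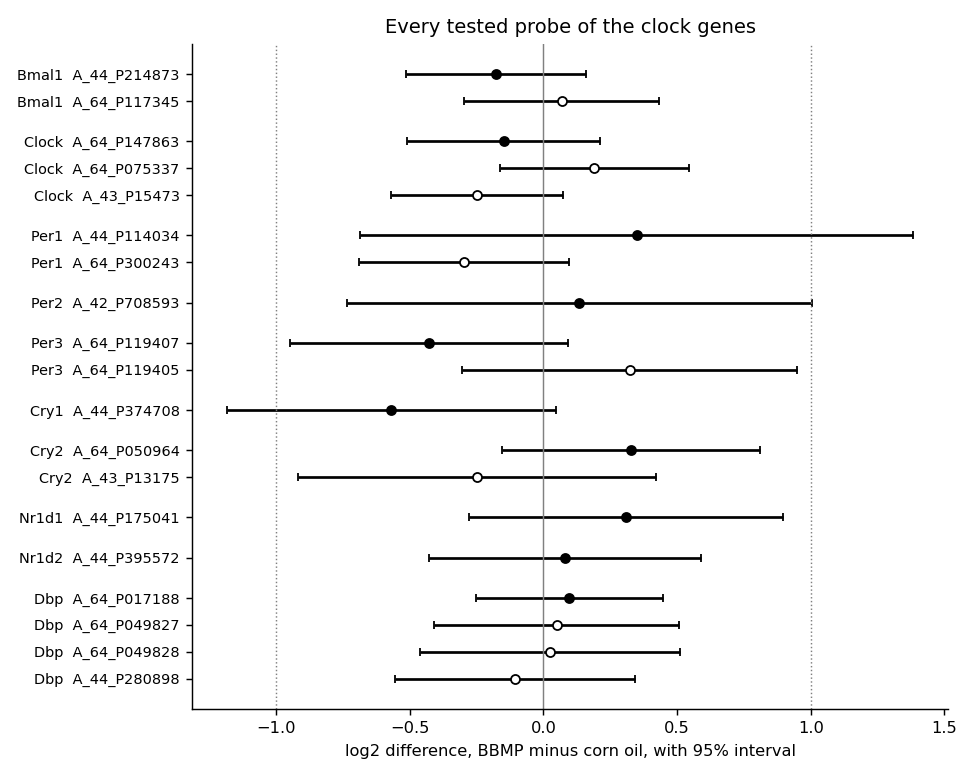
Difference between BBMP and corn oil on the log2 scale with its 95% interval for each of the 19 tested clock probes, from the fit with every probe as its own row. Filled points are the probes used for the genes, open points the other probes, and the dotted lines mark a 2-fold change. Every interval includes 0, and probes of the same gene fall on both sides of it in all 6 genes with more than 1 tested probe.

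Other transcription factors of the clock were read from a list of 11, of which 7 were on the array by accession and 6 were tested. With limma 0 of the 6 passed an adjusted p of 0.05. The groups did not overlap for 3 of the 6, where 17.8% of all features had groups that did not overlap. At an unadjusted p under 0.05, 4 of the 6 were lower in BBMP livers and 0 higher, where 6.09% of all features were lower at that threshold. The median difference of the list was -0.37 against -0.01 over all features. Without corn oil 2 only 1 of the 6 remained at that threshold, and without BBMP 1 there were 2.

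Tef, which binds the same D-box as Dbp, had levels of 1.57, 1.49 and 1.59 in BBMP livers against 1.94, 1.88 and 2.00 in corn oil livers. The groups did not overlap, and the livers of each group lay close together. The difference was -0.39 ± 0.09 (SE; limma adjusted p = 0.379). Nfil3, the repressor that competes for the D-box, had levels of 0.61, 0.73 and 1.07 in BBMP livers against 1.11, 1.86 and 1.91 in corn oil livers. Its groups just failed to overlap, between BBMP 3 and corn oil 1, and the difference was -0.82 ± 0.25 (SE; limma adjusted p = 0.405).

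Bhlhe40 (DEC1), an E-box repressor, had levels of -2.00, -1.40 and -2.44 in BBMP livers against -1.18, -0.42 and -1.31 in corn oil livers. The groups did not overlap, though BBMP 2 and corn oil 3 lay side by side, and the difference was -0.98 ± 0.33 (SE; limma adjusted p = 0.422). Npas2, which can stand in for CLOCK, had levels of 0.42, 0.54 and 0.80 in BBMP livers against 0.77, 1.08 and 0.94 in corn oil livers. These overlapped, the lowest liver was BBMP 1 as for Bmal1, and the difference was -0.34 ± 0.14 (SE; limma adjusted p = 0.458). Bmal2, a paralogue of Bmal1, and the CLOCK inhibitor Cipc, both outside the naming rule and given to complete the list, differed by 0.06 and -0.04.

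**Figure D4:**
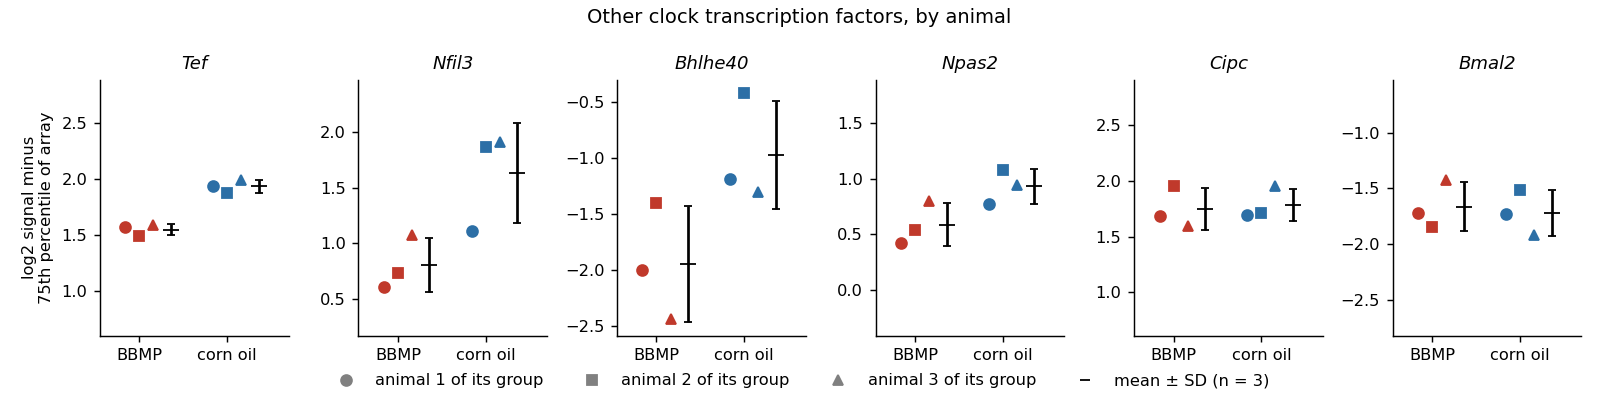
Levels of the 6 tested other clock transcription factors in every liver, on the log2 scale relative to the array's 75th percentile, drawn as for the clock genes with BBMP left of corn oil. Tef, Nfil3 and Bhlhe40 are lower in all BBMP livers than in all corn oil livers, and Npas2, Cipc and Bmal2 overlap. Among all features, 17.8% had groups that did not overlap.

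Kinases and ubiquitin ligase genes that set the stability of PER and CRY proteins had 0 members past the test. Of 6 tested, 3 were above and 3 below 0, with a median of 0.03. The casein kinases Csnk1e and Csnk1d, which phosphorylate PER proteins, differed by 0.30 ± 0.15 and 0.09 ± 0.21 (SE), and the deubiquitinase Usp2 by 0.44 ± 0.37. None of these passed, and Csnk1d was -0.10 without BBMP 2.

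Of 13 genes listed as outputs of the liver clock, 12 were tested, 6 above and 6 below 0 with a median of 0.08, and 0 passed. Nampt, the NAD salvage enzyme that CLOCK and BMAL1 drive, differed by -0.81 ± 0.33 (SE; limma adjusted p = 0.457) and the cell cycle kinase Wee1 by -0.31 ± 0.15. Of the 12 outputs, 8 spanned a wider range over the 6 livers than the 1.41 of Per1, the widest of the clock genes. That range of Per1 was at percentile 92.9 of all features. Noct and Alas1 are given as examples of the wider outputs. Noct, a rhythmic phosphatase gene, had levels of 0.04, 1.91 and -1.78 in BBMP livers against -0.38, -2.00 and -2.13 in corn oil livers. Alas1, which encodes the rate-limiting enzyme of haem synthesis, had levels of 8.25, 8.43 and 6.78 in BBMP livers against 7.15, 6.30 and 6.88 in corn oil livers. Within-group ranges of this size left Noct at 1.56 ± 0.96 and Alas1 at 1.04 ± 0.47 (SE; limma adjusted p = 0.580 and 0.486).

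The order of the animals on the brighter Per1 probe recurred in some of these genes. From highest to lowest it ran BBMP 2, BBMP 1, corn oil 1, corn oil 3, BBMP 3 and corn oil 2. Of the 36 other genes chosen by the naming rule, 2 had exactly this order, Usp2 and Alas1, as did 0.335% of 28098 features ranked. Noct, the heat shock gene Hsp90aa1 and Tsc22d3, a target of the glucocorticoid receptor, shared the same 3 highest livers in the same order, as did 1.60% of features. Tsc22d3 had levels of 3.21, 3.79 and 1.60 in BBMP livers against 2.85, 1.62 and 2.50 in corn oil livers. This order was looked for after the values were seen, among those 36 genes and the clock genes, and none of the other 9 clock genes had it. The dimmer Per1 probe did not have it either, with its highest level in corn oil 3 (-3.93) and its lowest in BBMP 1 (-4.71).

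Of the 7 listed glucocorticoid-responsive genes, 5 were above and 2 below 0, with a median of 0.27, and 0 passed. Fkbp5, another receptor target, was highest in BBMP 2 too, at 4.50, but corn oil 3 came next at 3.56, ahead of BBMP 1 at 2.89. Zbtb16 differed by 1.75 ± 0.94 and Sgk1 by -0.58 ± 0.22 (SE; limma adjusted p = 0.537 and 0.446). Fkbp5, Zbtb16 and Sgk1 did not have the order seen with Per1. Whether glucocorticoid hormone had a part in that order was not tested.

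**Figure D5:**
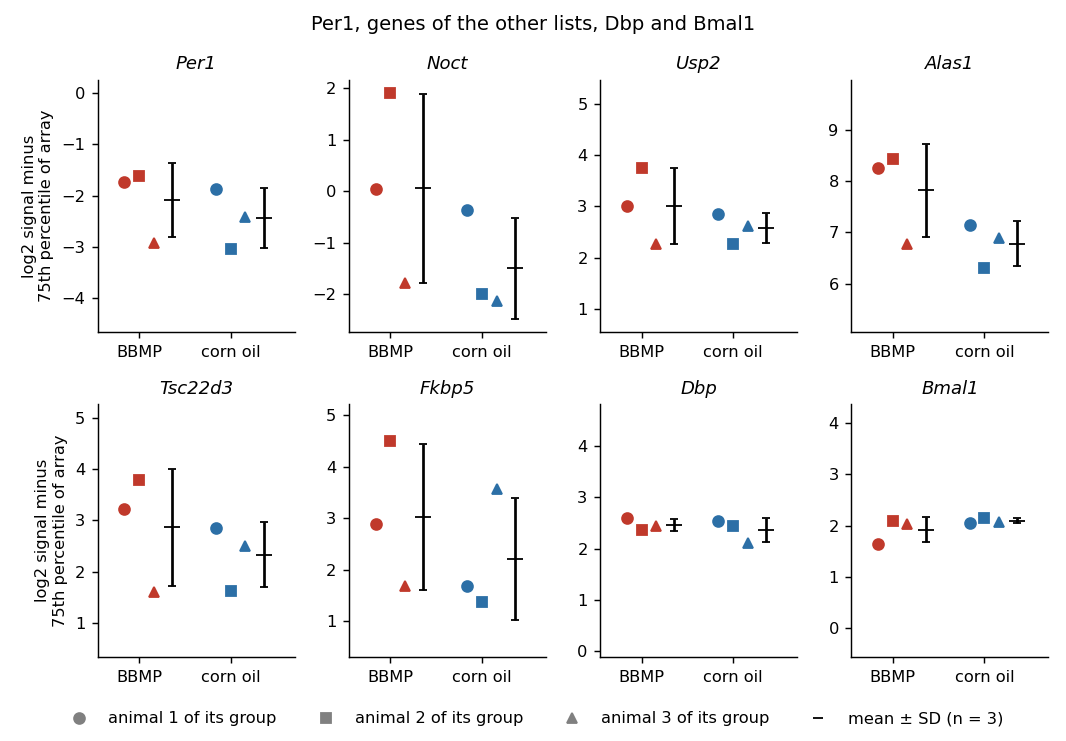
Levels of Per1, of the listed output genes Noct and Alas1, of the deubiquitinase gene Usp2, of the glucocorticoid-responsive genes Tsc22d3 and Fkbp5, and of Dbp and Bmal1 in every liver, on the log2 scale relative to the array's 75th percentile, with BBMP left of corn oil and the mean ± SD (n = 3) beside each group. In Per1 (its brighter probe), Noct, Usp2, Alas1 and Tsc22d3 the livers BBMP 2, BBMP 1 and corn oil 1 are the highest. Dbp and Bmal1 stay within 0.49 and 0.51 log2 units.

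Feeding and body temperature also move clock transcripts in rodent liver, so genes that follow them were read beside the clock. Of 9 tested fasting and feeding genes, 7 were below and 2 above 0, with a median of -0.28, and 0 passed. Pdk4, a kinase raised by fasting, differed by -0.95 ± 0.16 and the lipid synthesis gene Fasn, raised by feeding, by -0.52 ± 0.14 (SE; limma adjusted p = 0.315 and 0.401). These were the 2 of the 9 genes whose groups did not overlap, which was also so for 17.8% of all features. Angptl4 and G6pc1 differed by -0.26 and -0.28. Of 7 tested genes that respond to temperature, 6 were above and 1 below 0, with a median of 0.16, and 0 passed. The cold-inducible Cirbp differed by -0.29 ± 0.14 and Rbm3, also cold-inducible and named after its value was seen, by 0.11 ± 0.25, and the heat shock genes Hsp90aa1, Hsp90ab1 and Dnaja1 by 0.32 ± 0.16, 0.22 ± 0.16 and 0.14 ± 0.12 (SE). Whether feeding or temperature had a part in the clock gene values was not tested.

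Genes whose levels over the 6 arrays were most like those of Bmal1 and Dbp were taken from 10698 named genes well above background on all arrays. Pearson's r with Bmal1 was 0.99 for Mug1l1 and 0.98 for Cdca7l and Zfp451, and it was -0.99 for Timp1 and Abo3 and -0.98 for Trip10. In the Bmal1 set, the likeness rests largely on BBMP 1, which was the lowest liver for the first 3 and the highest for the others. With Dbp, r was 0.99 for Slc25a47 and Xkr6 and 0.98 for Ccdc181, and it was -0.98 for Xpo5 and Tmem254 and -0.97 for Uhrf2. In the Dbp set, corn oil 3 was the lowest liver and BBMP 1 the highest for the first 3, and the reverse held for the others. No clock gene stood in either set, since members were left out, and r was above 0.9 for 93 genes with Bmal1 and for 79 with Dbp. These values describe 6 arrays and were not tested.

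Across the series, between 60.1% and 64.4% of the 61573 probes were well above background on an array, the number of arrays limits the precision, and across features the arrays correlated with each other at 0.986 to 0.992 (Pearson). The leading principal component took 32.9% of the variance, with BBMP livers from 19.1 to 28.7 and corn oil livers at -9.60, -14.8 and, for corn oil 2, -50.8. The liver label was checked on hepatocyte markers: all 8 listed genes, Alb and Hnf4a among them, were measured well above background in at least 1 group, and their summed signal, in multiples of the 75th percentile, was 4568 to 5120 in BBMP livers and 4931 to 5277 in corn oil livers. Of 5 tested Kupffer cell and macrophage markers, 5 had differences above 0, with summed signals of 64.3 to 80.2 in BBMP livers and 48.5 to 79.9 in corn oil livers. Of 5 stellate cell and fibroblast markers, 3 had differences below 0, while Des and Dcn went the other way at 0.18 and 0.17. The sums over all 5 markers, in which the brightest, Lrat, weighed most, were 6.76 to 8.04 in BBMP livers. In corn oil livers they were 8.45 to 10.5. These sums did not overlap, and neither did the groups for 17.8% of all single features. The part of these cells in the clock gene values was not tested, and in whole liver RNA fewer cells of a type and less RNA per cell cannot be told apart.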

How the data were processed

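The deposited scanner files hold spot intensity on a linear scale, not normalised between arrays. Per the file headers they come from Agilent Feature Extraction 10.7.1.1 (design 035170, annotated on rn4), which subtracted background; the submitters' processing notes name version 10.7. The authors' value table holds intensity too: set against the scanner signal, its columns differed from it by a single factor per array, close to the 75th percentile; column medians were 0.0971 to 0.1005, so it is linear and uncentred; the software used is not given in the sources used here.

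Control spots and 84 spike-in probes were left out, and outlier spots (at most 21 per array; none among the clock probes) were dropped. RefSeq GRCr8 named 44.6% of probes by accession without version. Testing required a signal well above background on every array of at least 1 group; the brightest such probe stood for a gene. Groups were compared with limma 3.58.1 (R 4.3.3; two-sided, no covariate). The fit was tested on simulated data. Replicate numbers are not known to pair animals: deviations of animals sharing a number correlated at 0.0894, 0.0159 and 0.0719. The members and gene lists were chosen with earlier results of these data known. Named genes were all members, up to 4 genes of each list with the smallest p, and the 3 genes most and least like Bmal1 and Dbp; 1 of these genes is not reported here. Alternatives were other background corrections, scalings, filters and probe rules, the authors' table, a replicate block and leaving out each array; normexp used the median spot signal, the column the files carry.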

Additional observations from a re-analysis of the deposited data

How the results depend on the processing

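Under 16 alternative settings, 0 of the 10 clock genes passed an adjusted p of 0.05, with a smallest adjusted p of 0.347, and unadjusted p was under 0.05 for at most 2 of them, without corn oil 1. Of 160 clock gene differences under alternatives, 3 changed direction, each when 1 array was left out: those fits gave 0.39 to -0.29 for Per2, 0.27 to -0.10 for Nr1d2 and 0.19 to -0.0353 for Dbp. The number of features past the threshold was 2 and went to 0 with normexp (3275 at an unadjusted p under 0.05), to 0 with the filter on all 6 arrays (2832), to 1 without a filter (3304) and to 0 with the replicate block (3235), which does not rest on known pairs; leaving out an array gave 0 (without corn oil 3) to 4 (without corn oil 2 or BBMP 3). The cause was not tested. The group difference in the clock contrast, 0.39, was recomputed under other scalings and background corrections, the mean of probes, the authors' table, fewer genes and each array left out, and lay between 0.21 (without Cry1, Clock and Per1) and 0.47 (without BBMP 2), with 0.24 without BBMP 1. Leaving out 1 array also moved the clock gene differences by over 1.5 times for all but Cry1: the ranges were -0.26 to -0.0377 for Bmal1, -0.26 to -0.0743 for Clock, 0.0511 to 0.76 for Per1, -0.65 to -0.25 for Per3, 0.17 to 0.51 for Cry2 and 0.0757 to 0.47 for Nr1d1. With the mean of the probes of a gene, the 6 genes with more than 1 tested probe had smaller differences than with the brightest probe. Those were -0.05 for Bmal1, -0.07 for Clock, 0.03 for Per1, -0.05 for Per3, 0.04 for Cry2 and 0.02 for Dbp. With the replicate block, 1 clock gene had an unadjusted p under 0.05 and 0 passed. The count of 4 other clock transcription factors, followed under alternatives added after the data were seen, was 3 to 4 under other settings, and 1 to 4 when an array was left out.

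Of 36 other genes chosen by the naming rule, 0 passed under any of these settings. Of their 576 values, 13 changed direction: with normexp Timp1 gave -0.0604, Trip10 -0.0702 and Slc25a47 -0.11, and with the mean of probes Xpo5 gave 0.0296. Leaving out an array gave -0.10 to 0.31 for Csnk1d, -0.0487 to 0.14 for Ccdc181, -0.0331 to 0.15 for Slc25a47, -0.11 to 0.35 for Xkr6, -0.11 to 0.0355 for Tmem254, -0.18 to 0.0014 for Uhrf2 and -0.13 to 0.0513 for Xpo5. Signal over background limits the 3 dimmest Per3 probes, which give no difference. It also limits the Per3 probe that gave 0.32, the dimmer probes of Per1 and Cry2, and Nr1d2.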
